A study of Homo sapiens with 12 samples.

Results

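Cytosolic ribosomal protein genes encode the proteins of the 40S and 60S ribosomal subunits. The genes were chosen by symbol: RPL or RPS followed by a number and an optional letter or paralog suffix, together with RPLP0, RPLP1, RPLP2, RPSA and FAU, and without the RPS6K kinases and pseudogenes. Of 88 protein-coding symbols of this kind in RefSeq, 79 were matched to a probe, and 76 of those were above background in at least 1 group and were tested among 10529 genes in all. They comprised 29 genes of the small subunit and 47 of the large subunit. RPL10 and RPL3L were above background on 0 arrays and RPL22L1 on 1, and they were not tested. Whether the probes for RPL10 can read its mRNA was not tested, so its absence of signal does not show that the gene was silent. The other 9 symbols were not analysed here, and RPLP0, RPSA and RPS27A were not among the tested genes.

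HDLM-2 is an established human cell line from Hodgkin lymphoma. RNA from these cells was hybridised to Illumina HumanHT-12 V3 bead arrays after 24 h in 4 conditions, with 3 arrays each (A, B and C). Control cells had no drug named in the labels. The other cells received 100 nM givinostat (an inhibitor of histone deacetylases), 5 µM sorafenib (an inhibitor of RAF and several receptor tyrosine kinases), or both at those doses. Nothing in the labels tells whether arrays of 1 condition stem from separate cultures, and the p-values measure the spread between arrays only. All 4 groups are the same line without a genetic change, and no normal cell was compared.

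The equal production of all ribosomal proteins is a large part of a growing cell's work. Their mRNAs belong to the TOP class: transcription starts at a cytosine followed by a run of pyrimidines (the terminal oligopyrimidine tract), and translation of such mRNAs depends on the kinase mTORC1 and the binding protein LARP1. Ribosomal protein levels are therefore often controlled at translation and protein stability, which an mRNA array does not measure.

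The start of the gene is where the members resemble one another, so the 30 bases around the RefSeq start (15 before, 15 from the start onward) are shown for 7 members whose signal changed, for RPS6, whose signal stayed close to control, and for RPS27L, a paralog without a tract. Sequences are from RefSeq, build GRCh38.p14, and read 5′ to 3′ on the gene's own strand. Capitals mark the longest run of C followed by at least 4 pyrimidines that begins within 10 bases of the start.
RPL29: caccgcagCCCCTTTCTCTTCCggttctag
RPS21: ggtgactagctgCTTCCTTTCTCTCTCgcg
RPL36A: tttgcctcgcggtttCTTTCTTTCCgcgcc
RPL34: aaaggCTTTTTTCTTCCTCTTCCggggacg
RPS23: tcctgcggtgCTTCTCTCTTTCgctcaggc
RPS7: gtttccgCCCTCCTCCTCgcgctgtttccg
RPL7A: ccacaattCCCTTTCCTTTCTCTCTCCTCC
RPS6: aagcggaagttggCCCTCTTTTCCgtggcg
RPS27L: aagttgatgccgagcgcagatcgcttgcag
These windows are chr3:51995881-51995910 on the minus strand for RPL29, chr20:62387088-62387117 on the plus strand for RPS21, chrX:101390996-101391025 on the plus strand for RPL36A and chr4:108620561-108620590 on the plus strand for RPL34. They are chr5:82278340-82278369 on the minus strand for RPS23, chr2:3575245-3575274 on the plus strand for RPS7, chr9:133348203-133348232 on the plus strand for RPL7A, chr9:19380222-19380251 on the minus strand for RPS6 and chr15:63157463-63157492 on the minus strand for RPS27L. The capitals appear in members that rose, members that fell and RPS6, which did neither. The RPS6 probe lay near the top of the signal scale, so its small change does not show that its mRNA was steady.

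A promoter window of 300 bases was matched for 65 of the 76 members. On the sense strand, a C followed by at least 4 pyrimidines stood exactly at the annotated start in 42 of these 65 (64.6%), against 4.04% of all 27305 RefSeq promoters. Within 10 bases of the start it was found in 83.1% of members and 33.3% of all promoters. Searched on both strands of the whole window, CTTCCG, the core of an ETS-type site, was in 64.6% of members and 19.9% of all promoters, and GATGGC, part of a YY1-type site, in 26.2% and 13%. GGGCGG, an SP1-type box, was in 55.4% and 44.6%, and TATAAA in 7.69% and 12%. These are matches of letters and not shown to be bound, and the pyrimidine search and CTTCCG can overlap. Among the 11 members with a window that changed in any comparison below, 8 (72.7%) had the tract at the start, and the members as a whole are close to that share.

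The arrays were read at 48803 probes, and between 16382 and 17934 probes were above background on an array. The lowest mean raw intensity was 1033.8, on sorafenib array C, and the highest 1629.7, on control array B. Sorafenib array C also lay farthest from its group mean (root mean square deviation 0.22 on the log2 scale, others 0.15 to 0.17). The Hodgkin markers TNFRSF8 (CD30), FUT4, CCL17, TRAF1, IRF4, CD40 and TNFRSF9 were above background on all 12 arrays. The T cell genes CD3D, CD3E and CD3G were on 0 arrays. Of the mature B cell genes, CD79B was on 0, CD79A on 1 control and 1 combination array, and MS4A1 on all 3 control, 2 givinostat, 2 sorafenib and all 3 combination arrays.

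The ribosomal protein probes were among the brightest on the array. All 76 were above background on all 12 arrays, and their median normalized signal was 15.38 on the log2 scale, against 10.02 for all tested genes. The range ran from 8.47 for RPL10L to 16.06 for RPS6, and 34 of the 100 brightest genes were members. The highest signal after normalization was 16.10. The raw signal of RPS6, the small-subunit protein that S6 kinases phosphorylate, lay between 66733 and 69877 intensity units over the 12 arrays, beside array maxima of 69004 to 72773, and was itself the maximum on givinostat array C. Together the members took 6.43% to 8.30% of an array's summed raw intensity. A bead signal depends on the probe as well as on the mRNA, so these values rank probes and not transcript amounts.

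At its brightest probe, most of the ribosomal protein genes did not pass the test with either drug or with both, and 56 of the 76 such probes had a mean signal at or over 14, toward the top of the scale. Dimmer probes of some of the same genes did pass, as given further on. With givinostat 4 of 76 passed the test, 2 higher and 2 lower, a share of 5.26% beside 33.3% of all tested genes. With sorafenib 1 passed, RPL29, which was lower (1.32% beside 4.58%), and 0 passed in the other direction by limma, while 9 had an unadjusted p under 0.05 in either direction. With the combination 8 passed, 4 higher and 4 lower (10.5% beside 41.4%). The test was limma's moderated test with Benjamini-Hochberg adjustment over all 10529 genes, and rises and falls are named where the adjusted p was under 0.05.

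The median log2 change of the 76 members was -0.01 with givinostat, -0.01 with sorafenib and 0.01 with the combination, beside -0.02, 0.00 and -0.02 for all tested genes. For 67, 69 and 63 of the 76 members, in that order, the 95% confidence interval of the change lay within 1.5-fold either way. These intervals describe the probe signals: in the brightest of 5 signal bands, which held 37 members, the median residual SD was 0.043, against 0.17 for the members with a signal under 12, so a narrow interval there does not show that the mRNA was steady. Only RPL29, with the combination, reached a 2-fold change. The 3 comparisons with control share the control arrays, and their values are therefore not independent of each other.

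**Figure D1:**
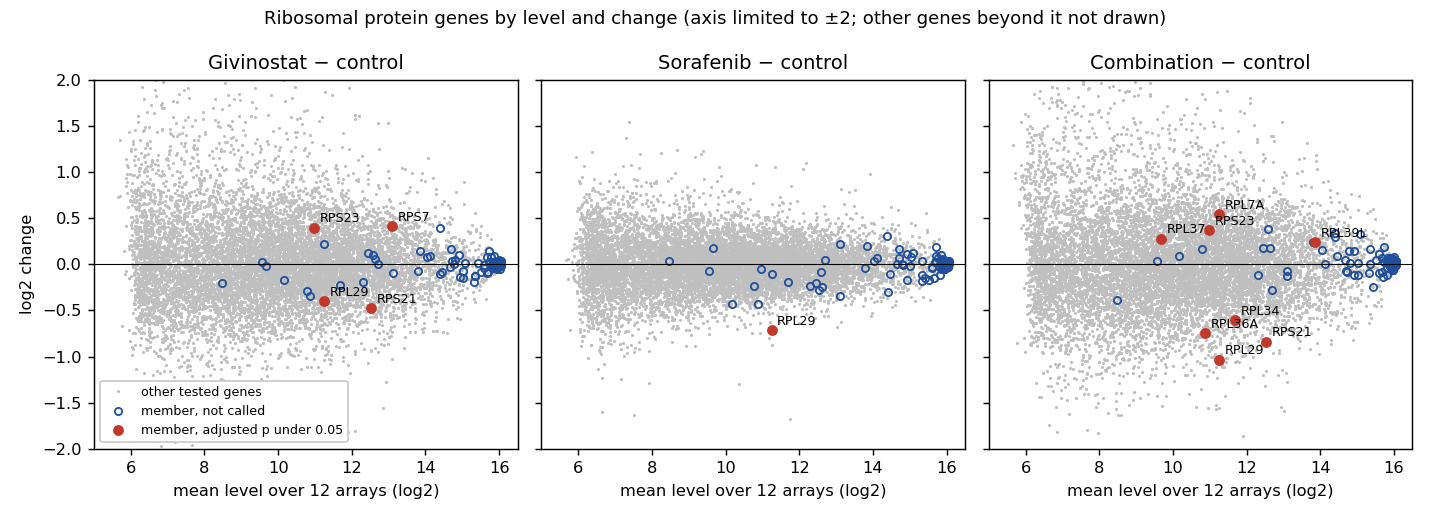
Log2 change against control (vertical) by mean signal over 12 arrays (horizontal, log2) for givinostat, sorafenib and the combination. Grey dots are other tested genes, blue rings are ribosomal protein genes that did not pass, and red points with names are the 4, 1 and 8 that passed at an adjusted p under 0.05; most rings crowd at the bright end near a change of 0.

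The members that passed were all among the dimmer ones. In the 5 group comparisons 14 members passed at least once, and all 14 were among the 20 members with a mean signal under 14, the brightest of them at 13.85. How many of all genes, or of dimmer genes, passed at least once was not counted. The 14 of 20 therefore has no share to be read against, unlike the single comparisons that follow. Of the 56 members at or over 14, 0 passed in any of the 5 comparisons by limma. Of 452 other genes at or over that signal, 21.2% passed with givinostat and 33.6% with the combination, beside 34.1% and 42% of 10001 dimmer other genes. Of the 20 dimmer members, 4 passed with givinostat and 8 with the combination, and 8 against sorafenib, where 35.9% of dimmer other genes did. Under a signal of 12, 6 of 10 members passed with the combination, beside 41.4% of other genes. In the brightest of 5 signal bands 3.75% of 80 other genes passed with givinostat and 11.2% with the combination. The median absolute log2 change of the 56 bright members with the combination was 0.05 and that of the 20 dim ones 0.26. The part of signal saturation in the small changes of the bright members was not tested.

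RPL29, a small basic protein of the large subunit, fell in every comparison with control at its brighter probe. Its log2 signal was 11.59, 11.92 and 11.85 on control arrays A, B and C, 11.44, 11.51 and 11.21 with givinostat, 11.15, 11.20 and 10.88 with sorafenib, and 10.76, 10.78 and 10.71 with the combination. No array of a treated group reached a control array, and the combination arrays lay below every other array. The log2 change was -0.40 ± 0.12 (SE, n = 3, adjusted p = 0.0228) with givinostat, -0.71 ± 0.12 (adjusted p = 0.00849) with sorafenib and -1.04 ± 0.12 (adjusted p = 4.35e-05) with the combination, a 2.05-fold fall. Sorafenib array C did not carry the sorafenib result, which was -0.61 (adjusted p = 0.0279) without it. The givinostat call was lost without control array B, control array C or givinostat array C, with an adjusted p of up to 0.0924. It was also lost when the dimmer probe stood for the gene (adjusted p = 0.0736). A fit of the control and sorafenib arrays alone gave the sorafenib fall an adjusted p of 0.0668. A lack of overlap with the control arrays was common. It held for 48.4% of all tested genes with givinostat, 24.4% with sorafenib and 53.9% with the combination. Of the 76 members it held for 12, 11 and 19, in that order.

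RPS21, a small-subunit protein, fell with givinostat and with the combination. Its signal was 12.75, 13.05 and 12.97 in control, 12.41, 12.50 and 12.43 with givinostat, 12.83, 12.71 and 12.38 with sorafenib and 12.10, 12.07 and 12.08 with the combination. The combination arrays were the lowest and spread by little, while sorafenib arrays overlapped both control and givinostat arrays. The change was -0.48 ± 0.12 (SE, n = 3, adjusted p = 0.00808) with givinostat and -0.84 ± 0.12 (adjusted p = 0.000158) with the combination. With sorafenib it was -0.28 ± 0.12 (adjusted p = 0.182), which did not pass. The givinostat and combination calls of RPS21 held in each of the 12 fits that left out 1 array.

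RPL36A and RPL34, both of the large subunit, fell with the combination. RPL36A, which sits near the ribosome's exit site for tRNA, read 11.29, 11.57 and 10.88 in control and 10.72, 10.34 and 10.42 with the combination. The groups did not overlap, with control array C the closest to a combination array. The change of RPL36A was -0.75 ± 0.18 (SE, n = 3, adjusted p = 0.0065). RPL34 read 11.92, 12.24 and 11.66 in control and 11.52, 11.26 and 11.22 with the combination, again without overlap. Its change was -0.60 ± 0.16 (adjusted p = 0.00847). With single drugs neither passed: RPL36A changed by -0.34 with givinostat and -0.43 with sorafenib, and RPL34 by -0.22 and -0.20.

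RPS23 and RPS7, both small-subunit proteins, rose with givinostat. RPS23, which lies at the decoding centre of the ribosome, read 10.77, 10.66 and 10.95 in control, 11.13, 11.10 and 11.34 with givinostat, 10.80, 10.82 and 10.62 with sorafenib and 11.11, 11.26 and 11.12 with the combination. Every array with givinostat, alone or combined, lay above every array without it. The change of RPS23 was 0.40 ± 0.11 (SE, n = 3, adjusted p = 0.0132) with givinostat, -0.05 ± 0.11 (adjusted p = 0.854) with sorafenib and 0.37 ± 0.11 (adjusted p = 0.015) with the combination. The givinostat call of RPS23 was lost without control array B or givinostat array C (adjusted p up to 0.0573), and the combination call without control array B or combination array B (up to 0.0627).

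RPS7, which also binds the p53 regulator MDM2 when free of the ribosome, read 12.98, 13.31 and 13.01 in control, 13.53, 13.64 and 13.36 with givinostat, 12.92, 12.65 and 12.69 with sorafenib and 13.19, 12.93 and 12.96 with the combination. The givinostat arrays were the highest, the sorafenib arrays the lowest, and the combination arrays overlapped control. The givinostat change was 0.41 ± 0.12 (SE, n = 3, adjusted p = 0.0236), and the sorafenib change was -0.35 ± 0.12 (adjusted p = 0.129) and did not pass. With the combination it was -0.07 ± 0.12 (adjusted p = 0.67). The givinostat call of RPS7 was lost without control array A, control array C, givinostat array A or givinostat array B, with an adjusted p of up to 0.0903.

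The large-subunit genes RPL7A, RPL37 and RPL39L rose with the combination, and each of these calls was lost without some single arrays. RPL7A read 10.68, 11.42 and 11.15 in control and 11.90, 11.41 and 11.57 with the combination, and the groups overlapped by 1 array. Its change was 0.54 ± 0.18 (SE, n = 3, adjusted p = 0.0331), and it did not pass without control array A or C or without combination array A or C (adjusted p up to 0.14). RPL37 changed by 0.28 ± 0.09 (adjusted p = 0.0237) and lost its call without control array A, control array C or combination array C (up to 0.0972). RPL39L, a paralog of RPL39 known from testis, changed by 0.24 ± 0.09 (adjusted p = 0.0424) and kept its call in 2 of 12 fits that left out 1 array: those without control array B and without sorafenib array C (up to 0.145 in the others).

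**Figure D2:**
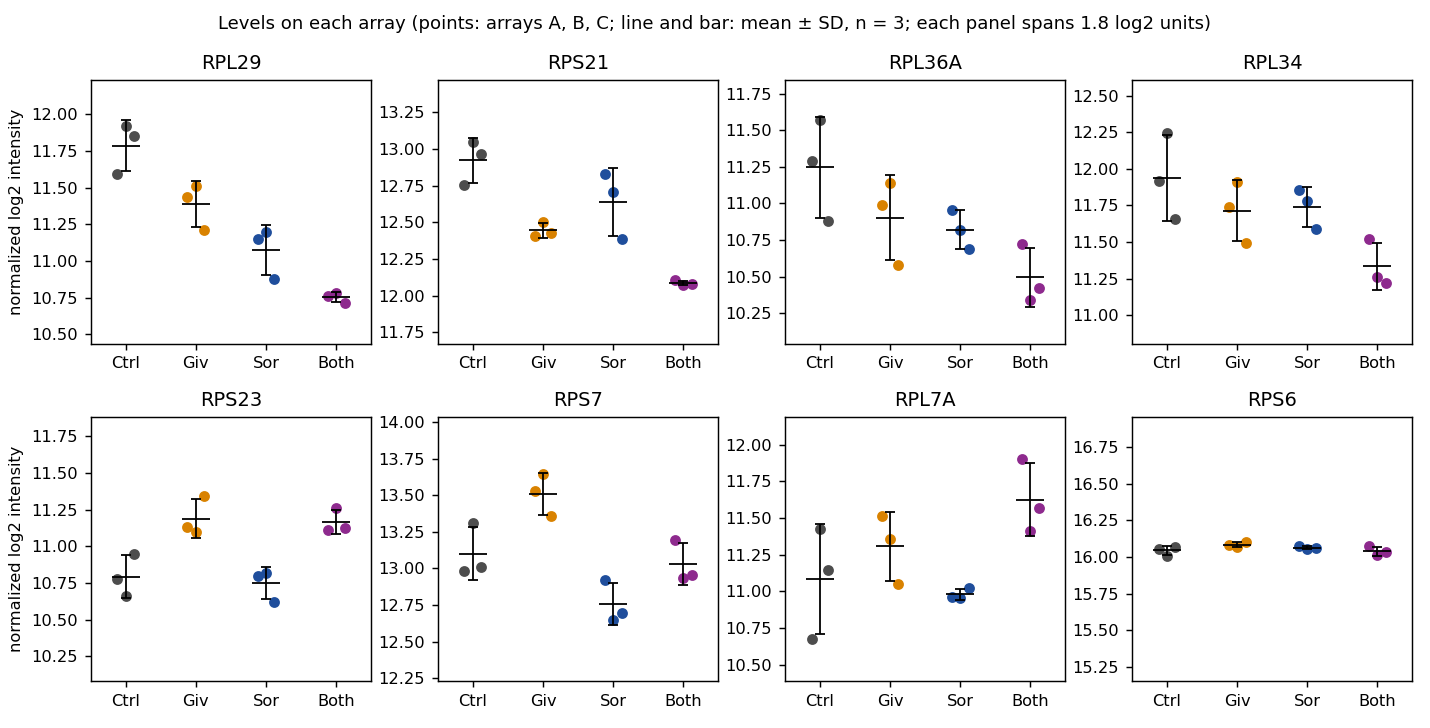
Normalized log2 intensity on each array for 8 ribosomal protein genes; points are arrays A, B and C of control (Ctrl), givinostat (Giv), sorafenib (Sor) and the combination (Both), and the line with its bar is the mean ± SD (n = 3). RPL29 is lowest with both drugs (10.71 to 10.78), RPS23 is higher in the groups with givinostat, and RPS6 stays between 16.01 and 16.10 in all groups.

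The combination was also set against each drug alone. Against givinostat, 1 of 76 members passed, RPL29, which was lower by 0.64 ± 0.12 (log2, adjusted p = 0.025), a share of 1.32% beside 1.34% of all tested genes. That call was lost without givinostat array A or B, or any 1 of the 3 combination arrays (adjusted p up to 0.107). Against sorafenib, 8 passed, 5 higher and 3 lower (10.5% beside 35.3%). Lower were RPS21 (-0.55 ± 0.12, adjusted p = 0.0034), RPL10L (-0.42 ± 0.15, adjusted p = 0.0446) and RPL22 (-0.36 ± 0.08, adjusted p = 0.00363), an RNA-binding protein that mice can live without. RPL22 read 13.35, 13.31 and 13.33 with sorafenib and 13.05, 12.94 and 12.94 with the combination, the control arrays (13.12, 13.08 and 13.13) lying between them.

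Higher with the combination than with sorafenib were RPL7A (0.65 ± 0.18, adjusted p = 0.0172), RPL13 (0.52 ± 0.11, adjusted p = 0.00402), RPL13A (0.42 ± 0.11, adjusted p = 0.0101), RPS23 (0.42 ± 0.11, adjusted p = 0.00969) and RPL23A (0.38 ± 0.13, adjusted p = 0.0375). RPL13A, known to leave the ribosome for a translation-silencing complex in interferon-treated cells, read 12.50, 12.48 and 12.17 with sorafenib and 12.92, 12.83 and 12.68 with the combination, without overlap. Arrays of those groups did not overlap for 46.7% of all tested genes. Against control neither group passed for RPL13A: the change was -0.25 with sorafenib and 0.18 with the combination. For RPL13 a second, dimmer probe went the other way (-0.98). RPL7A lost its call without combination array A (adjusted p = 0.0731). RPL23A, near the exit of the nascent chain, lost it without any 1 of the sorafenib or combination arrays (up to 0.135). RPL10L lost it without any 1 of control array B, givinostat arrays A and B, sorafenib arrays A and B and combination arrays B and C (up to 0.156).

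Whether both drugs together differed from the sum of the single changes was asked with an interaction term. It passed for 0 of 76 members by limma, beside 0.019% of all tested genes, and 5 members had an unadjusted p under 0.05. For RPL29 the interaction was 0.08 ± 0.17 and for RPS21 -0.08 ± 0.17 (log2, SE). An F test for any difference among the 4 groups passed for 11 members (14.5%, beside 46.6% of all tested genes): RPL13, RPL13A, RPL22, RPL29, RPL34, RPL36A, RPL37, RPL7A, RPS21, RPS23 and RPS7.

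By subunit, the 29 small-subunit genes gave 2 rises (RPS23, RPS7) and 1 fall (RPS21) with givinostat (10.3%, beside 33.3% of all tested genes). With the combination they gave 1 rise and 1 fall (6.9%, beside 41.4%). The 47 large-subunit genes gave 0 rises and 1 fall (RPL29) with givinostat (2.13%), and 3 rises and 3 falls with the combination (12.8%). With the combination the median log2 change was 0.01 in each subunit.

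The stalk, fusion and 5S genes that were tested (RPLP1, RPLP2, FAU, RPL5 and RPL11) did not pass in any comparison with control. The stalk gene RPLP0 and the fusion gene RPS27A were not tested. RPLP1 and RPLP2, the acidic proteins of the stalk that recruits elongation factors, changed by 0.08 and 0.06 with the combination. FAU, which encodes a ubiquitin-like protein fused to RPS30, read 15.45, 15.62 and 15.49 in control and 15.34, 15.10 and 15.37 with the combination. Those groups did not overlap, which held for 53.9% of all tested genes. The change of FAU was -0.25 ± 0.10 (SE, n = 3, adjusted p = 0.0631) and did not pass. RPL5 and RPL11, which form a particle with 5S rRNA that inhibits MDM2, changed by 0.14 ± 0.10 and 0.04 ± 0.09 with the combination (adjusted p = 0.279 and 0.734).

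The paralogs were described beside the genes they are named after. RPS27L, a p53 target related to RPS27, read 14.13, 14.39 and 13.91 in control and 14.59, 14.77 and 14.26 with givinostat. The groups overlapped, and the change of 0.40 ± 0.14 (SE, n = 3, adjusted p = 0.0514) did not pass; RPS27 changed by -0.01. RPL10L, a retrocopy of RPL10 best known from testis, changed by -0.38 ± 0.15 with the combination (adjusted p = 0.0563). RPL36AL, RPL26L1 and RPL7L1 changed by -0.07, -0.28 and 0.14 with the combination, and RPL26, RPL7, RPL39 and RPL3 by 0.15, 0.38, 0.06 and 0.03. None of these passed at its brightest probe, and the interval for RPL7 reached from -0.05 to 0.81. A second, dimmer RPL26L1 probe (signal 11.66) did pass with the combination, with a change of -0.49 (adjusted p over all probes 0.0191). RPS4X, RPS4Y1 and RPS4Y2, the X- and Y-linked copies of RPS4, changed by 0.02, 0.00 and 0.17. Paralogs and processed pseudogenes of these genes can be nearly identical, and whether a probe reads 1 copy only was not tested.

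More than 1 probe was detected for 35 members, and a gene stood as its brightest probe above. Fitted singly, 123 probes of members were tested: 4 passed higher and 5 lower with givinostat (7.32%, beside 29% of all probes), 0 higher and 7 lower with sorafenib (5.69%, beside 2.99%), and 4 higher and 12 lower with the combination (13%, beside 36.7%). For RPL29 both probes fell with the combination, by 1.04 and by 1.00 on the log2 scale. With givinostat its dimmer probe changed by -0.31 and did not pass (adjusted p over all probes 0.0731). For RPS7 both probes rose with givinostat, by 0.41 and 0.56. RPL34's second probe changed by -0.22 with the combination and did not pass.

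In 10 of the 35 genes at least 1 probe passed with the combination and another did not. RPL6 had bright probes at 16.03 and 15.86 that changed by -0.02 and -0.05, and a dim one at 11.71 that fell by 1.01 (adjusted p over all probes 0.00012). RPL13 showed 0.09 at a probe of signal 10.16 and -1.92 (adjusted p = 8.64e-06) at one of 7.58. RPL36 showed -0.12 at 15.02 and -1.25 (adjusted p = 0.00196) at 8.10. RPS15, RPS24 and RPL7L1 likewise had a dimmer probe that fell (-0.64, -0.56 and -0.49) beside brighter ones that did not pass (0.05 and 0.04, 0.09 and 0.14). For RPS27 the dimmest of 3 probes rose, by 0.30 (adjusted p = 0.0483). Probes of 1 gene can read different transcripts, and which of them reads the main ribosomal protein mRNA was not tested.

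**Figure D3:**
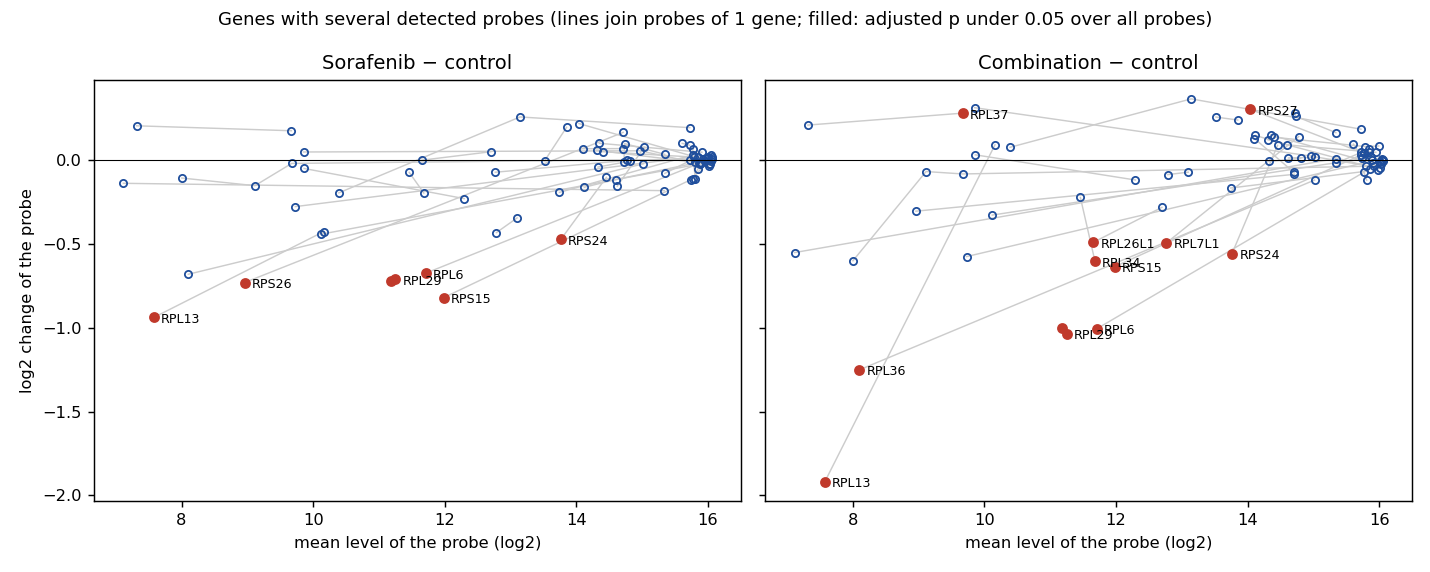
Log2 change with sorafenib and with the combination (vertical) by mean probe signal (horizontal, log2) for the 35 ribosomal protein genes with more than 1 detected probe; grey lines join probes of 1 gene. Red points passed at an adjusted p under 0.05 over all probes and most are dim; the brightest probes lie near 0, and the dim RPL13 probe is at -1.92 with the combination.

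The direction of the group as a whole depended on the normalization, so none is given. Scaling each array to its median signal moved the median change of all tested genes to -0.12 with givinostat, -0.17 with sorafenib and -0.09 with the combination, while the members' medians were 0.00, -0.05 and -0.02. Relative to all genes they then lay higher by 0.12, 0.12 and 0.06. Cyclic loess left the median of all genes at 0.00, 0.00 and 0.01 and put the members at 0.10, 0.10 and 0.14. With the members given weight 0 in that loess they lay at 0.11, 0.11 and 0.15. The authors' own quantile table gave -0.01, -0.01 and 0.01.

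The calls of single members were counted under the same settings. Under cyclic loess, with members weighted or not, the counts with control were again 2 higher and 2 lower for givinostat, 0 and 1 for sorafenib, and 4 and 4 for the combination. The 4 higher with the combination were not the same 4 genes, since RPL39L no longer passed. Against sorafenib both loess fits gave 7 higher and 2 lower (11.8% of members, beside 34.7% and 34.6% of all genes). The authors' table gave 3 and 2, 0 and 2, and 4 and 5. Median scaling gave 0 and 2, 0 and 2, and 0 and 6: RPS23 and RPS7 (0.25 each with givinostat) and RPS23, RPL7A, RPL37 and RPL39L (0.24, 0.38, 0.23 and 0.05 with the combination) no longer passed. Between treated groups, median scaling also ended the calls of RPL29 against givinostat (-0.61) and of RPL22 (-0.34), RPL10L (-0.25) and RPL23A (0.39) against sorafenib. Cyclic loess ended that of RPL10L against sorafenib (-0.38) and, against control, that of RPL39L with the combination (0.22). For all tested genes that scaling also turned the split with givinostat from 1856 higher and 1653 lower to 1106 higher and 1996 lower. RPL29, RPS21, RPL36A and RPL34 fell with the combination under all 5 normalizations, RPL29 by 0.96 to 1.17 and RPS21 by 0.81 to 1.01. With the brightest probe for each gene, a smaller share of members than of all genes passed in these 3 comparisons under each of the 5. With the dimmest probe, 7.89% of members and 2.95% of all genes passed with sorafenib.

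**Figure D4:**
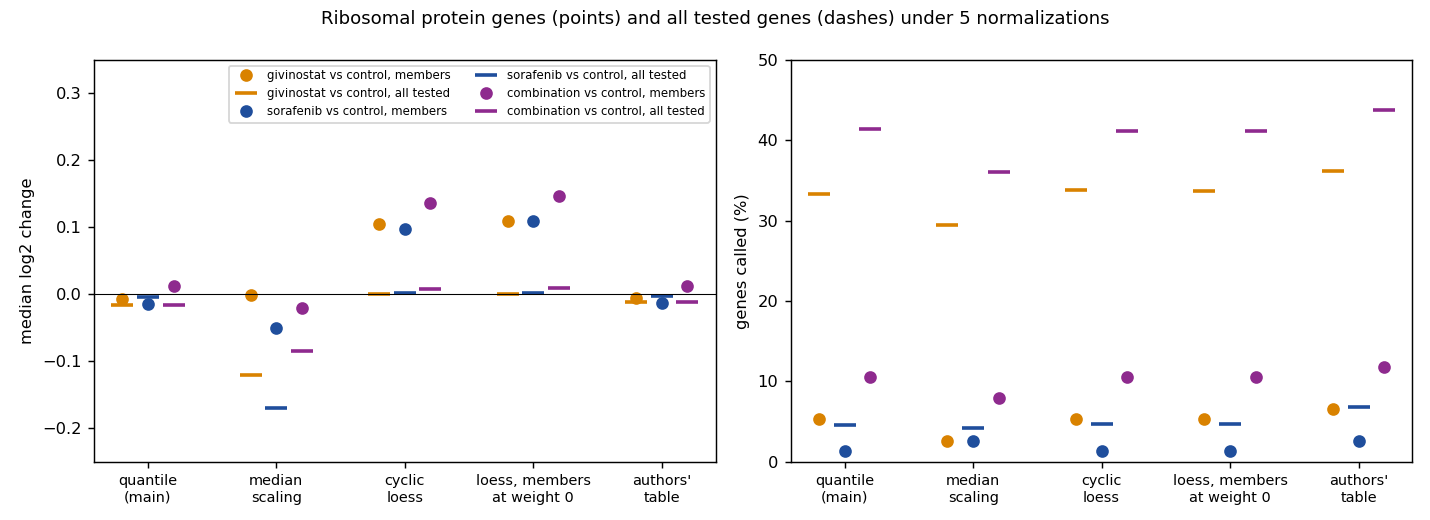
Median log2 change (left) and share of genes that passed (right, %) under 5 normalizations, for the 76 ribosomal protein genes (points) and all tested genes (dashes), in the 3 comparisons with control (colours). The members' medians lie near 0 with quantile normalization and near 0.10 to 0.15 with loess, and their share, with the brightest probe standing for each gene, lies below that of all genes in these 3 comparisons.

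Mitochondrial ribosomal protein genes, which build the separate ribosome of that organelle, gave other counts on the same arrays. Of 76 tested, 28 fell and 0 rose with givinostat (36.8%, beside 33.3% of all tested genes), 2 fell and 0 rose with sorafenib (2.63%, beside 4.58%), and 48 fell and 0 rose with the combination (63.2%, beside 41.4%). Their median log2 change was -0.25, -0.13 and -0.41. MRPL38 had the smallest adjusted p with the combination, where it fell by 0.69 ± 0.08 (log2, SE, adjusted p = 5.45e-05). It also fell with sorafenib, by 0.61 ± 0.08 (adjusted p = 0.00251). With the combination MRPL46 fell by 0.88 ± 0.11 (adjusted p = 5.55e-05), MRPS7 by 0.82 ± 0.10 (adjusted p = 5.79e-05) and MRPL9 by 0.81 ± 0.10 (adjusted p = 7.42e-05). The difference between both groups of genes was not tested, and the cytosolic probes are the brighter ones.

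Of 12 genes for chaperones and importers of ribosomal proteins, 6 fell and 0 rose with givinostat (50%, beside 33.3% of all tested genes), and 10 fell and 0 rose with the combination (83.3%, beside 41.4%). IPO7 and TNPO1 did not pass with the combination (adjusted p = 0.0831 and 0.0578). With sorafenib 0 passed by limma and 3 had an unadjusted p under 0.05. GRWD1, related to the yeast chaperone of RPL3, fell by 0.77 ± 0.09 (log2, SE, adjusted p = 6.43e-05) with the combination. PDCD2L, related to the RPS2 chaperone PDCD2, fell by 0.68 ± 0.11 (adjusted p = 0.00038). RPF2, which with RRS1 brings the 5S particle to the large subunit, fell by 0.56 ± 0.10 (adjusted p = 0.00108), and the importin IPO5 by 0.58 ± 0.11 (adjusted p = 0.00127).

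Other genes with TOP mRNAs behaved as mixed single cases. Of 17 tested, 1 rose and 1 fell with givinostat (11.8%, beside 33.3% of all tested genes). With sorafenib 0 passed by limma (0%, beside 4.58%), and the median change was 0.02. With the combination 1 rose and 2 fell (17.6%, beside 41.4%). The median change was -0.04 both with givinostat and with the combination. EEF1D, an exchange factor for elongation, rose by 0.28 and 0.32 (adjusted p = 0.0239 and 0.0103). EIF4A2, a helicase of initiation, fell by 0.62 and 0.51 (adjusted p = 6e-04 and 0.00151). HNRNPA1 fell by 0.66 with the combination (adjusted p = 0.00091), at a signal of 10.49 beside 13.70 for EEF1D and 14.26 for EIF4A2. EEF1A1, the chief elongation factor, changed by 0.00 in both at a signal of 16.06. Of 13 eIF3 subunits, which share 4 genes with that list, 2 fell and 0 rose with givinostat (15.4%, beside 33.3% of all tested genes). With the combination 5 fell and 0 rose (38.5%, beside 41.4%), EIF3B by 0.43 ± 0.09 (adjusted p = 0.00192).

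Among 16 tested genes of mTORC1 and the TOP regulators, 2 rose and 3 fell with givinostat (31.2%, beside 33.3% of all tested genes) and 2 rose and 6 fell with the combination (50%, beside 41.4%). SESN3, an inhibitor of mTORC1, rose by 1.28 ± 0.16 and 1.38 ± 0.16 (adjusted p = 0.000123 and 4.99e-05). AKT1S1 (PRAS40, an inhibitory partner) fell by 0.91 ± 0.12 with the combination, the subunit MLST8 by 0.63 ± 0.11 and the kinase MTOR by 0.47 ± 0.09 (adjusted p = 9.1e-05, 0.000914 and 0.00181). Of 9 S6 kinase genes, 2 rose and 2 fell with givinostat (44.4%, beside 33.3%). With the combination RPS6KC1 rose and RPS6KA4 fell (0.27 and -0.40, 22.2% of the list, beside 41.4%). RPS6KB1, the kinase that phosphorylates RPS6, changed by 0.12 with givinostat and -0.19 with the combination and did not pass (adjusted p = 0.366 and 0.121).

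**Figure D5:**
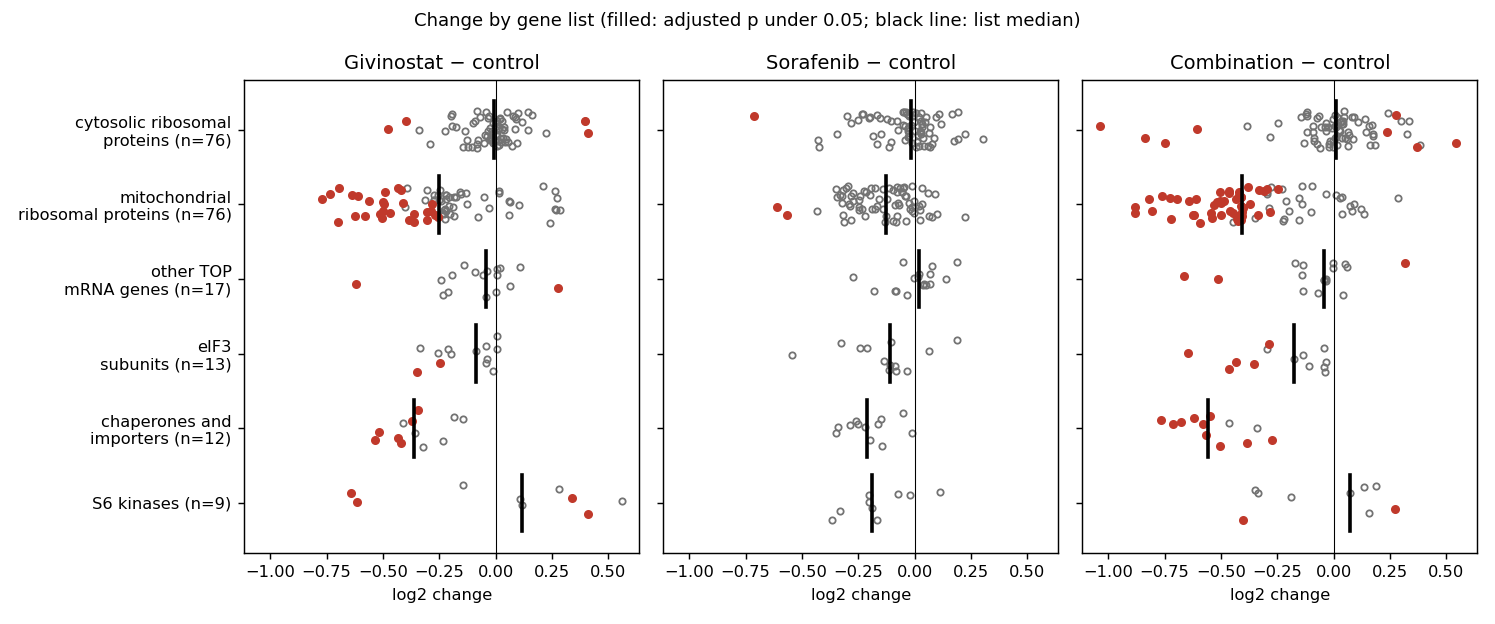
Log2 change against control (horizontal) of each gene in 6 lists (rows, with the number tested) for givinostat, sorafenib and the combination; filled red points passed at an adjusted p under 0.05 and the black line is the list's median. The cytosolic ribosomal protein genes centre on 0 with 8 red points under the combination, and the mitochondrial ones centre on -0.41 with 48.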

How the data were processed

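Expression was measured on 12 Illumina bead arrays of HDLM-2 cells. The deposited non-normalized file holds a bead intensity per probe and array, read with BeadStudio per the submitters' processing notes (version not given in the sources used here), and beside it a fraction headed as detection p-value. That deposited fraction rose with intensity on every array (lowest Spearman correlation 0.992) and was read as 1 minus the p-value. The authors' second file holds linear intensity after quantile normalization.

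Intensities were background-corrected (normexp from detection p-values, offset 16), quantile normalized and log2 transformed in limma 3.58.1 (R 4.3.3, statmod 1.5.0). A probe entered if its detection p was under 0.05 on every array of some group (16927 probes). Of 48803 probes, 28098 had 1 symbol in the platform table, 13 several and 20692 none. The brightest probe stood for a gene. Group means were fitted over all 12 arrays (8 residual, 4.04 prior degrees of freedom), tests were two-sided, and p-values were adjusted over 10529 genes. The script was tested on simulated data. The number of arrays limits the precision.

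Named by rule were, per comparison, up to 6 rises and 6 falls that passed, the 6 smallest F test p-values, paralogs, stalk, fusion and 5S genes, and up to 4 genes of each list; members named for their several probes, and RPS6, were chosen after their values were seen. Members and lists were chosen with earlier results of these data known. Alternatives were other normalizations, detection filters, probe rules, array weights, a block for the array letter and leaving out each array.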

Additional observations from a re-analysis of the deposited data

How the results depend on the processing

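With 3 arrays a group and probes near the top of the scale, small changes of bright members may be missed. Over the 22 calls of named members, 426 of 506 values under the alternatives kept the call, 78 kept the direction without passing and 2 reversed. Of 2944 values of uncalled named members, 54 passed in the same direction and 7 in the other. The 2 choices of the dimmest probe and of single probes were added after seeing the data. Reversals came from probes of 1 gene: with the mean of probes RPL37 was 0.38 (givinostat), and RPL13 -0.91 (combination) and -0.23 (combination against sorafenib). With the dimmest probe RPL37 was 0.79 (givinostat), RPL13 -1.92 (combination), -0.90 (against givinostat) and -0.98 (against sorafenib), and RPL7L1 -0.49 (combination) and -0.42 (against sorafenib). The dimmest probe gave 3 higher and 4 lower members with givinostat (9.21% of members, 30.1% of all genes) and 6 lower with sorafenib (7.89% and 2.95%). It gave 2 higher and 10 lower with the combination (15.8% and 37.5%) and 4 lower against givinostat (5.26% and 1.13%). Against sorafenib it gave 5 higher and 5 lower (13.2% and 31%). The mean of probes gave 4 higher and 5 lower with givinostat (11.8% of members, 35.2% of all genes). It gave 3 lower with sorafenib (3.95% and 4.66%) and 3 higher and 9 lower with the combination (15.8% and 42.2%). Median scaling gave 0 higher and 2 lower with givinostat (2.63% of members, 29.5% of all genes) and 2 lower with sorafenib (2.63% and 4.23%). It gave 0 higher and 6 lower with the combination (7.89% and 36%). Against givinostat 0 were lower (0% and 0.836%, median -0.052). Against sorafenib 4 were higher and 1 lower (6.58% and 27.2%, median -0.075). The F test passed for 7, and its share of all genes was not counted under the alternatives. Cyclic loess put the medians at 0.10, 0.10, 0.14 and, against sorafenib, -0.047, and with members at weight 0 at 0.11, 0.11, 0.15 and -0.048. The authors' table gave 2 lower with sorafenib (2.63% of members, 6.75% of all genes) and 2 lower against givinostat (2.63% and 2.91%). Against sorafenib it gave 7 higher and 6 lower (17.1% and 38.3%). Probes detected on all 12 arrays gave 2 lower with sorafenib (2.63% of members, 5.74% of all genes). Against sorafenib they gave 6 higher and 5 lower (14.5% and 37.5%). Without a detection filter 1 was higher and 4 lower with the combination (6.33% of members, 20.2% of all genes). Against givinostat 0 were lower (0% and 0.361%), and 6 passed the F test. The compared groups alone gave 0 lower with sorafenib (0% of members, 0.712% of all genes). Array weights gave 2 lower with sorafenib (2.63% of members, 4.86% of all genes) and 2 lower against givinostat (2.63% and 3.4%). Against sorafenib they gave 7 higher and 5 lower (15.8% and 38.1%). For these changes of count the cause was not tested. The probe rules take other probes, and the filters change the number of tested genes: 9353 if detected on all 12 arrays and 18852 without a filter, beside 10529.

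The array letters were not shown to pair arrays: deviations of same-letter arrays correlated at -0.059 to 0.255. A replicate block for the letter gave 2 lower members with sorafenib (2.63% of members, 3.99% of all genes). Against sorafenib it gave 6 higher and 5 lower (14.5% and 35.9%). With givinostat 6.58% of members and 33.8% of all genes passed. RPL7A with the combination no longer passed (adjusted p = 0.0511).

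Leaving out 1 array moved the count with givinostat between 1 and 2 higher and 1 and 2 lower (1 higher without control A or C or givinostat A or B, 1 lower without control B or givinostat C). With sorafenib 1 to 2 were lower (2 without combination A). With the combination 1 to 5 were higher and 4 to 6 lower (1 higher without control A, control C or combination C, 2 without combination A or B). Against givinostat 0 to 1 were lower (0 without givinostat A or B or any combination array). Against sorafenib 3 to 6 were higher (3 without combination A) and 2 to 4 lower. Across these fits 3.95% to 5.26% of members passed with givinostat, beside 27.2% to 36.3% of all genes. With sorafenib it was 1.32% to 2.63% beside 1.58% to 3.84%. With the combination it was 6.58% to 14.5% beside 33.6% to 43.8%. Against givinostat it was 0% to 1.32% beside 0.303% to 2.14%, and against sorafenib 7.89% to 13.2% beside 27.4% to 34.6%. The F test passed for 7 without control A, givinostat A, combination B or combination C.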
